A study of Mus with 9 samples.

Results

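The interleukins and their receptors were followed as a gene family in RNA sequencing of mouse tissue labelled as atrial. Members were all genes of the deposited count table whose symbol begins with Il and a digit, with antisense transcripts left out. This gave 84 of 55421 genes, and 1 antisense transcript, Il1bos, was set aside. Of the 84 members, 52 had enough reads to be tested. Of the 32 others, 17 had 0 counts in every library and 15 had a few counts, at most 21 in any library.

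Interleukins are secreted signals through which immune cells, fibroblasts and other tissue cells direct inflammation and repair. They act on paired receptor chains, and in several families 1 chain binds the ligand while a shared chain passes the signal on through MyD88 and NF-kB or through JAK kinases and STAT factors. Decoy receptors, receptor antagonists and soluble binding proteins limit these signals. After the heart muscle loses its blood supply, IL-1 and IL-6 are known as early signals of the inflammatory response.

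The 9 libraries fall into 3 groups of 3. MI_ART mice had a myocardial infarction and received artesunate, an antimalarial derivative of artemisinin, dissolved in DMSO and injected into the peritoneum. MI mice had the infarction and vehicle (titled MI 2, MI 3 and MI 4), and Sham mice had the operation without the ligation and vehicle (titled CON with AF, which the labels do not explain). All were wild-type male C57BL/6J mice aged 8 to 10 weeks by the labels. The infarction was surgical, by a permanent ligature on the left anterior descending branch of the coronary arteries. The labels disagree on the dose: the treatment protocol gives 25 mg/kg each day for 7 days from surgery, and the series description gives 10 mg/kg on alternate days, from 2 days before surgery to day 7. They do not give the day of harvest, and they mention rats and a further group, neither of which is analysed here. No label besides the titles states that the libraries are from different animals. The p-values therefore rest on the spread among these libraries, which may be technical.

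Total counts per library ranged from 68046341 to 83685313. Levels are given as CPM, the read count scaled to the size of the library after TMM normalization, and 3 counts in a library corresponded to 0.0322 to 0.0592 CPM. They are not divided by gene length and so are compared between samples, not between genes. The atrial label was checked with 2 myosin light chains. Myl7, the atrial form, ranged from 1.96 to 989 CPM over the 9 libraries, and Myl2, the ventricular form, from 455 to 3786 CPM, so that the ratio of Myl2 to Myl7 ran from 0.460 in MI 4 to 784 in MI_ART 3. MI_ART 3 thus all but lacked the atrial marker. The ratio was 3.64, 17.7 and 6.57 in Sham, 1.87 in MI 2, 2.36 in MI 3, 5.45 in MI_ART 1 and 1.22 in MI_ART 2. The ventricular form thus had more reads than the atrial form in every library except MI 4. MI 4 stood apart within its group, with a chi-square per gene of 469 to 580 against MI 2 and MI 3, whereas the other within-group pairs lay between 62.5 and 129. Counts of 4, 8 and 12 were more frequent than their neighbours in every library (684 to 936 genes with a count of 4, against 359 to 476 with 3 and 467 to 591 with 5), and the cause was not tested. The exact counts of the lowest members are to be read with this in mind.

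More members were called higher than lower after infarction, with or without artesunate, and none was called different between the infarcted groups. Adjusted p-values are from edgeR's quasi-likelihood test with Benjamini-Hochberg adjustment over all 19326 tested genes, and a gene was called at an adjusted p below 0.05. In MI_ART versus Sham, 22 of 52 members rose (42.3%, background 12.9% of all tested genes) and 4 fell (7.69%, background 7.41%). In MI versus Sham, 25 rose (48.1%, background 18.8%) and 4 fell (7.69%, background 14.3%). The 2 comparisons share the Sham libraries. The median log2 fold change of the tested members was 1.34 in MI_ART versus Sham, against 0.01 over all tested genes, and 1.19 in MI versus Sham, against 0.04 over all. 9 tested members were below the filter level of 0.138 CPM in every Sham library and passed the filter only through infarcted libraries, so a difference was built into their selection. Of these 9 (Il1rn, Il1a, Il1f9, Il10, Il11, Il27, Il6, Il12rb1 and Il4i1), 6 were called higher in MI_ART and 7 in MI. Without MI 4 and MI_ART 3 together, 21 members rose and 4 fell in MI_ART (background 14.4% and 10.5% of all tested genes). In MI, 22 rose and 4 fell without them (background 17.1% and 14.4%).

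**Figure D1:**
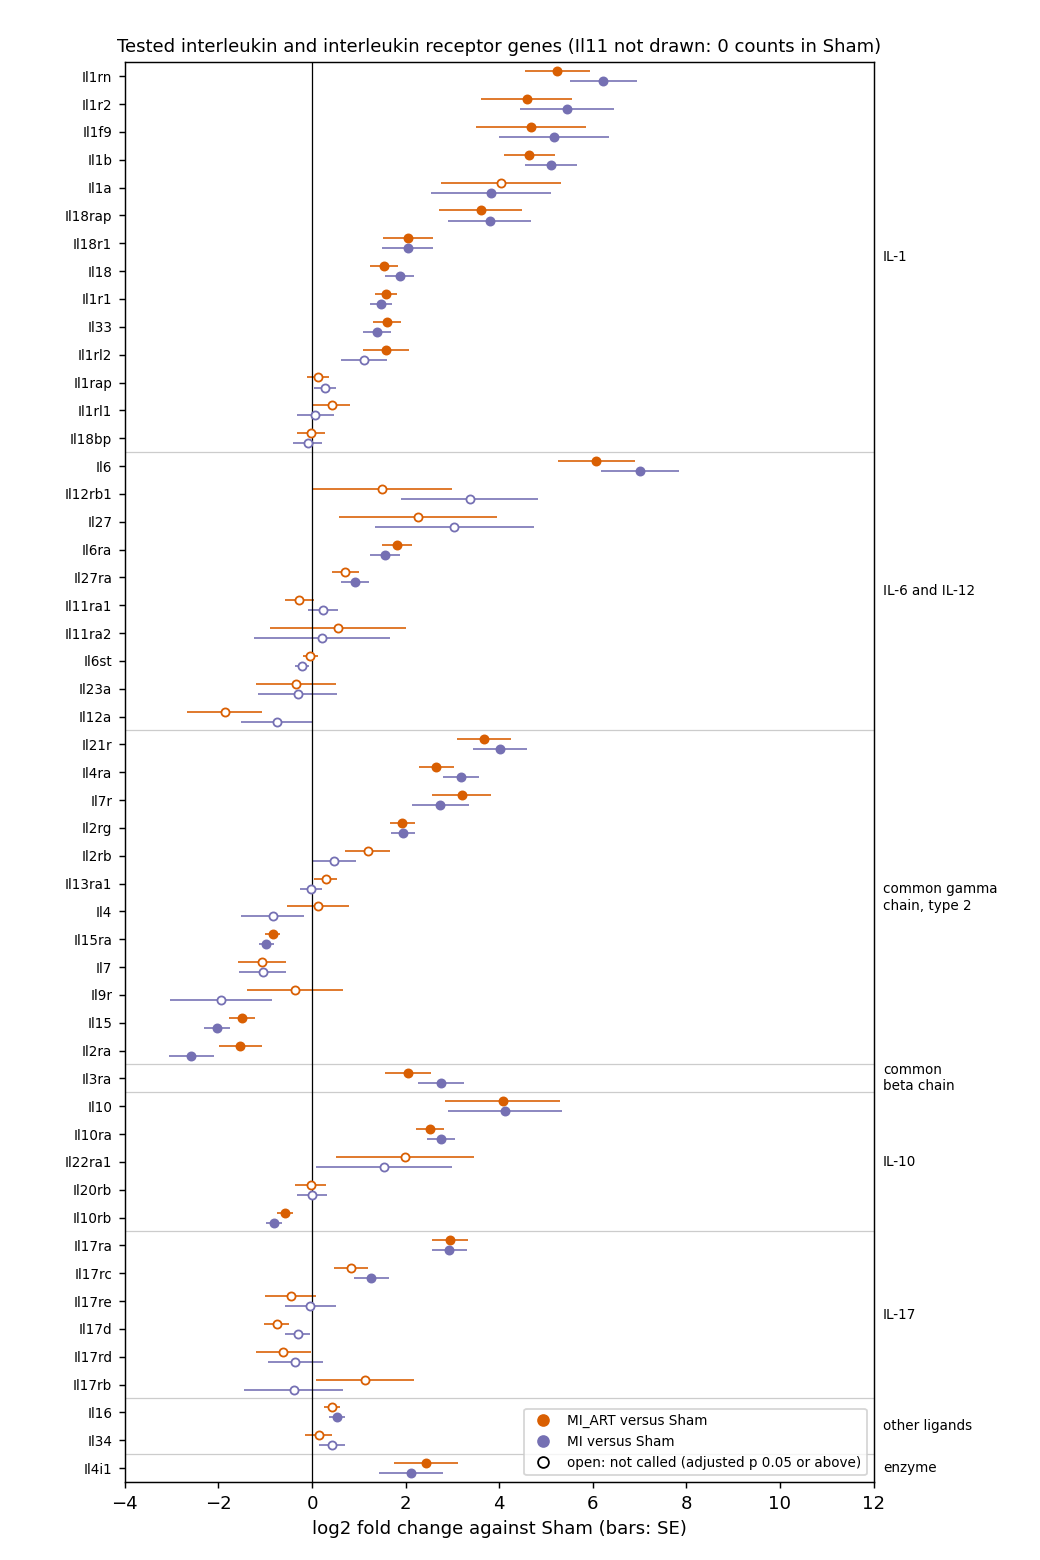
Log2 fold change against Sham (x axis, bars are the standard error) of the tested members except Il11, grouped by receptor family down the page, with MI_ART drawn above MI for each gene. Filled points passed an adjusted p of 0.05 and open points did not. Il11 is among the 22 and 25 members that rose but is not drawn. The others that rose lie right of 0 and include 10 members of the IL-1 family in each comparison. The 4 that fell (Il15, Il2ra, Il15ra and Il10rb) lie left of 0.

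The IL-1 family held 20 members, of which 14 were tested. 10 rose in MI_ART (background 12.9% of all tested genes) and 10 in MI (background 18.8%), and none fell in either (background 7.41% and 14.3%). Il1rn, Il1a and Il1f9 passed the filter only through infarcted libraries, so a difference was built into their selection. The median log2 fold change of the tested members of the family, these included, was 1.83 in MI_ART and 1.96 in MI. Among the ligands, Il1b, the IL-1 form released by activated myeloid cells, had 9.85, 4.70 and 10.8 CPM in MI_ART, 8.88, 8.89 and 17.0 CPM in MI, and 0.406, 0.118 and 0.479 CPM in Sham. Every infarcted library was far above every Sham library, and the MI_ART and MI values overlapped. The log2 fold change was 4.65 ± 0.55 (SE, adjusted p = 0.000456) in MI_ART and 5.11 ± 0.56 (adjusted p = 0.00019) in MI. The gene lies on chromosome 2 at 129364569 to 129371164 (GRCm38), where Il1bos overlaps it on the annotation. Il1bos had at most 11 counts in any library, against 376 to 1580 counts of Il1b in the infarcted libraries.

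Il1a, the other IL-1 ligand and an alarm signal released by dying cells, averaged 0.555 ± 0.480 CPM in MI_ART, 0.480 ± 0.260 in MI and 0.0329 ± 0.0570 in Sham (SD, n = 3 each). It was called higher in MI (log2 fold change 3.82, adjusted p = 0.0431) and just missed in MI_ART (adjusted p = 0.0512). The call in MI held only when Sham 2, MI 4 or MI_ART 2 was the library left out, with an adjusted p of 0.0161 to 0.119 across the 9 omissions. Il1f9 (IL-36 gamma, an epithelial and myeloid ligand) averaged 0.860 ± 0.657 CPM in MI_ART, 1.21 ± 0.236 in MI and 0.0319 ± 0.0553 in Sham. It rose by a log2 fold change of 4.68 in MI_ART (adjusted p = 0.0197) and 5.17 in MI (adjusted p = 0.00805). The MI_ART call was lost without Sham 1 (adjusted p = 0.061), Sham 2 (0.0618), MI_ART 1 (0.0525) or MI_ART 3 (0.0634).

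Il33, an alarm signal held in the nuclei of stromal and endothelial cells, had 60.0, 28.4 and 32.7 CPM in MI_ART, 34.7, 32.0 and 37.6 CPM in MI, and 11.7, 11 and 17.2 CPM in Sham. The groups did not overlap with Sham, and MI_ART 1 stood above the other infarcted libraries. Il33 rose by a log2 fold change of 1.60 ± 0.30 in MI_ART (adjusted p = 0.0048) and 1.39 ± 0.29 in MI (adjusted p = 0.00555). Its receptor Il1rl1 (ST2) did not pass in either comparison (adjusted p = 0.515 in MI_ART and 0.905 in MI). Il1rl1 had 1.43, 2.03 and 1.57 CPM in MI_ART, 1.83, 1.36 and 0.754 CPM in MI, and 1.59, 1.22 and 0.938 CPM in Sham, and the 3 groups overlapped.

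Il18, the ligand that caspase-1 releases together with IL-1 beta, had 2.5, 2.40 and 3.16 CPM in MI_ART, 3.50, 3.03 and 3.64 CPM in MI, and 0.793, 0.711 and 1.26 CPM in Sham. No infarcted library overlapped with Sham. It rose by a log2 fold change of 1.54 ± 0.30 in MI_ART (adjusted p = 0.00671) and 1.88 ± 0.31 in MI (adjusted p = 0.00144). The annotated Il18 overlaps Bco2 and Tex12, so some of its reads may belong to those genes. Its soluble inhibitor Il18bp had 12.3, 6.10 and 7.29 CPM in MI_ART, 9.30, 7.08 and 8.12 CPM in MI, and 10.3, 5.85 and 9.94 CPM in Sham, with full overlap (adjusted p = 0.972 in MI_ART and 0.852 in MI). In counts, the ratio of Il18bp to Il18 was 4.90, 2.54 and 2.31 in MI_ART, 2.66, 2.33 and 2.23 in MI, and 13.0, 8.22 and 7.86 in Sham. Each infarcted library thus had a lower ratio than each Sham library, a description for which no test was run.

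The IL-1 inhibitors rose as well. Il1rn, the receptor antagonist that occupies the IL-1 receptor without signalling, had 3.44, 2.31 and 4.5 CPM in MI_ART, 5.63, 7.48 and 7.21 CPM in MI, and 0.0737, 0 and 0.191 CPM in Sham. The 3 groups were fully separated, with MI_ART between MI and Sham, but MI_ART versus MI did not pass (adjusted p = 0.733). Of all tested genes, 6.52% were likewise lower in MI_ART than in MI without overlap. The log2 fold change against Sham was 5.24 ± 0.70 in MI_ART (adjusted p = 0.000851) and 6.23 ± 0.71 in MI (adjusted p = 0.000241). Il1rn lies on chromosome 2 at 24336860 to 24351491. Il1r2, the decoy receptor that binds IL-1 without signalling, had 5.65, 1.60 and 2.53 CPM in MI_ART, 2.48, 3.66 and 11.8 CPM in MI, and 0.147, 0.257 and 0 CPM in Sham. It rose by 4.58 ± 0.98 in MI_ART (adjusted p = 0.00993) and 5.46 ± 1.01 in MI (adjusted p = 0.00272), on the log2 scale. The spread was wide and MI 4 was the highest library. With limma-voom neither call was made (adjusted p = 0.123 in MI_ART and 0.0565 in MI). In counts, Il1rn was 0.35, 0.492 and 0.418 of Il1b in MI_ART, 0.633, 0.842 and 0.423 of it in MI, and 0.182, 0 and 0.400 of it in Sham.

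Among the signalling receptors of the family, Il1r1, which carries the IL-1 signal, had 69.1, 44.0 and 60.9 CPM in MI_ART, 46.7, 69.5 and 44.8 CPM in MI, and 20.0, 20.9 and 17.1 CPM in Sham. It rose by 1.59 ± 0.23 in MI_ART (adjusted p = 0.0014) and 1.47 ± 0.23 in MI (adjusted p = 0.00115), on the log2 scale, with no overlap with Sham. Il1rap, the chain shared by the IL-1, IL-33 and IL-36 receptors, had 14.2, 11.1 and 11.2 CPM in MI_ART, 15.9, 14.6 and 10.1 CPM in MI, and 11.7, 8.73 and 13.1 CPM in Sham. Its groups overlapped and it was not called (adjusted p = 0.769 in MI_ART and 0.405 in MI). The binding chain of the IL-18 receptor, Il18r1, averaged 7.19 ± 4.08 CPM in MI_ART, 7.17 ± 0.790 in MI and 1.73 ± 1.03 in Sham. It rose by 2.05 in MI_ART (adjusted p = 0.0247) and 2.05 in MI (adjusted p = 0.0163), on the log2 scale. MI_ART 3 was low at 2.49 CPM and lay within the Sham range, which reached 2.89 CPM. The Il18r1 call was lost without Sham 2 (adjusted p = 0.0847 in MI_ART and 0.0588 in MI) and without Sham 3 (0.0978 in MI_ART and 0.0672 in MI), and in MI_ART also without MI_ART 1 (0.0896) or MI_ART 2 (0.0705).

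The IL-18 signalling chain Il18rap averaged 2.54 ± 1.32 CPM in MI_ART, 2.88 ± 1.07 in MI and 0.208 ± 0.181 in Sham. It rose by 3.61 in MI_ART (adjusted p = 0.0185) and 3.79 in MI (adjusted p = 0.00941) on the log2 scale, and the MI_ART call was lost without Sham 3 (0.0565) or MI_ART 1 (0.066). Il1rl2, the IL-36 receptor, was called in MI_ART (log2 fold change 1.58, adjusted p = 0.049) and not in MI (adjusted p = 0.109). It had 13.3, 9.06 and 12.3 CPM in MI_ART, 10.3, 12.5 and 2.28 CPM in MI, and 4.02, 3.44 and 4.12 CPM in Sham, so MI 4 alone lay below Sham. Without MI 4 it was called in MI too (log2 fold change 1.56, adjusted p = 0.000738). The MI_ART call held only without MI 3 or MI 4, with an adjusted p of 0.000585 to 0.141 across the 9 omissions.

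6 of these receptor genes lie side by side on chromosome 1 (GRCm38.p6 positions from RefSeq). In order they are Il1r2 (40084692 to 40125230), Il1r1 (40222480 to 40316201), Il1rl2 (40324589 to 40367555), Il1rl1 (40404864 to 40465418), Il18r1 (40465552 to 40500854) and Il18rap (40515362 to 40551707). Il1r2, Il1r1, Il18r1 and Il18rap rose in both comparisons, Il1rl2 passed in MI_ART, and Il1rl1 passed in neither, although it ends 0.134 kb before Il18r1 begins. With so small a gap, reads past the annotated end of Il1rl1 could be counted for Il18r1, and this was not tested.

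**Figure D2:**
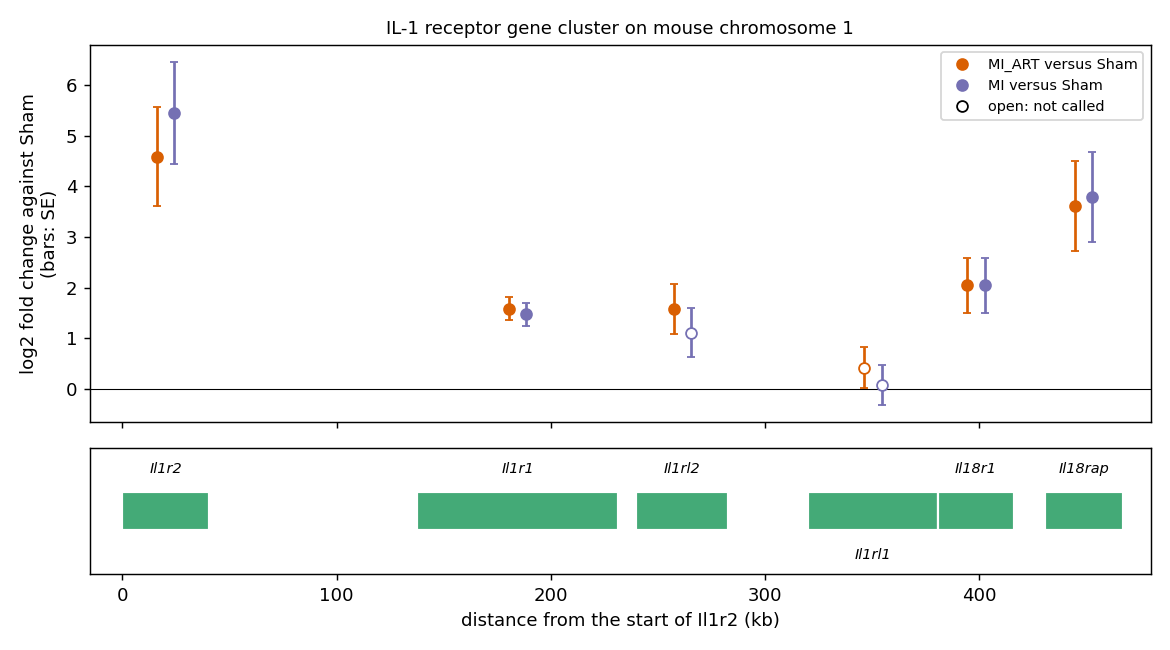
Log2 fold change against Sham (upper panel, bars are the standard error, filled points passed an adjusted p of 0.05) at the position of each gene of the IL-1 receptor row, and the genes drawn to scale as distance in kb from the start of Il1r2 (lower panel). Il1rl1 is the gene near 0 in both comparisons, and Il1r2 and Il18rap at the ends are the highest.

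The family of IL-6 and IL-12 held 18 members, 11 of them tested. 3 rose in MI_ART (background 12.9% of all tested genes), 4 rose in MI (background 18.8%) and none fell (background 7.41% and 14.3%). Il6, Il11, Il27 and Il12rb1 passed the filter only through infarcted libraries. Il6, which drives the acute-phase response, had 1.89, 1.53 and 2.02 CPM in MI_ART, 2.24, 3.40 and 4.73 CPM in MI, and 0.0737, 0 and 0 CPM in Sham. All 3 groups were separate, with MI_ART between MI and Sham, but MI_ART versus MI did not pass (adjusted p = 0.752). Against Sham, the log2 fold change was 6.07 ± 0.83 in MI_ART (adjusted p = 0.000959) and 7.01 ± 0.84 in MI (adjusted p = 0.0003). Both rest on 4 counts in all of Sham. Il6 lies on chromosome 5 at 30013114 to 30019975. Il11, a fibroblast product of the same family that signals through the same shared chain, had 0.185, 0.288 and 0.197 CPM in MI_ART, 0.228, 0.472 and 0.636 CPM in MI, and 0 counts in all Sham libraries. Set against the floor of 3 counts per Sham library it was at least 3.89-fold higher in MI_ART (adjusted p = 0.00646) and at least 7.76-fold higher in MI (adjusted p = 0.00189), a bound that covers counting error only. Il11 overlaps Tmem190 in the annotation.

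The ligand-binding chain of the IL-6 receptor rose and the shared signalling chain was not called. Il6ra had 14.7, 7.63 and 17.4 CPM in MI_ART, 13.0, 12.1 and 8.12 CPM in MI, and 3.76, 4.19 and 3.31 CPM in Sham, without overlap with Sham. Its log2 fold change was 1.82 ± 0.32 in MI_ART (adjusted p = 0.00369) and 1.56 ± 0.32 in MI (adjusted p = 0.00438). Il6st (gp130), the chain through which IL-6, IL-11 and LIF all signal, had 187, 199 and 163 CPM in MI_ART, 165, 177 and 141 CPM in MI, and 183, 188 and 191 CPM in Sham. The MI_ART values straddled the Sham values and the MI values lay below them, and neither comparison passed (adjusted p = 0.904 in MI_ART and 0.308 in MI). The count of Il6ra was 0.0785, 0.0383 and 0.107 of that of Il6st in MI_ART, 0.0784, 0.0683 and 0.0576 of it in MI, and 0.0206, 0.0222 and 0.0173 of it in Sham. All 6 infarcted libraries were above all 3 Sham libraries in this ratio, again a description with no test.

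The IL-11 receptor Il11ra1 had 47.2, 71.2 and 55.2 CPM in MI_ART, 57.0, 58.9 and 131 CPM in MI, and 71.6, 75.4 and 62.5 CPM in Sham. It was not called (adjusted p = 0.606 in MI_ART and 0.602 in MI), and MI 4 was the highest library. Its near copy Il11ra2 appears under 3 identifiers, 2 of them at 0 in every library. The third averaged 1.61 ± 0.0866 CPM in MI_ART, 1.26 ± 1.25 in MI and 1.09 ± 1.12 in Sham, with 0 counts in MI 3 and Sham 1, and was not called (adjusted p = 0.835 in MI_ART and 0.929 in MI). Reads of these copies may be split between them, so both are uncertain. Il27ra, the receptor of IL-27, averaged 5.57 ± 0.369 CPM in MI_ART, 6.40 ± 1.25 in MI and 3.39 ± 1.32 in Sham. It was called in MI (log2 fold change 0.92, adjusted p = 0.0398) and not in MI_ART (adjusted p = 0.123). The call in MI held only without Sham 1 or MI 2, with an adjusted p of 0.0162 to 0.11 across the 9 omissions, and the gene overlaps Palm3.

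The IL-12 and IL-23 subunits and the other members of this family were near the floor. Il12a averaged 0.0950 CPM in MI_ART, 0.208 in MI and 0.351 in Sham (adjusted p = 0.132 in MI_ART and 0.488 in MI). Il23a averaged 0.145 CPM in MI_ART, 0.148 in MI and 0.184 in Sham (adjusted p = 0.825 in MI_ART and 0.811 in MI). Neither subunit was called. Il27, which overlaps Apobr, averaged 0.157 CPM in MI_ART, 0.269 in MI and 0.0307 in Sham (adjusted p = 0.399 in MI_ART and 0.198 in MI). Il12rb1, the chain shared by the IL-12 and IL-23 receptors, averaged 0.0578 CPM in MI_ART, 0.216 in MI and 0.0197 in Sham, where it had 3 counts in all (adjusted p = 0.538 in MI_ART and 0.104 in MI).

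**Figure D3:**
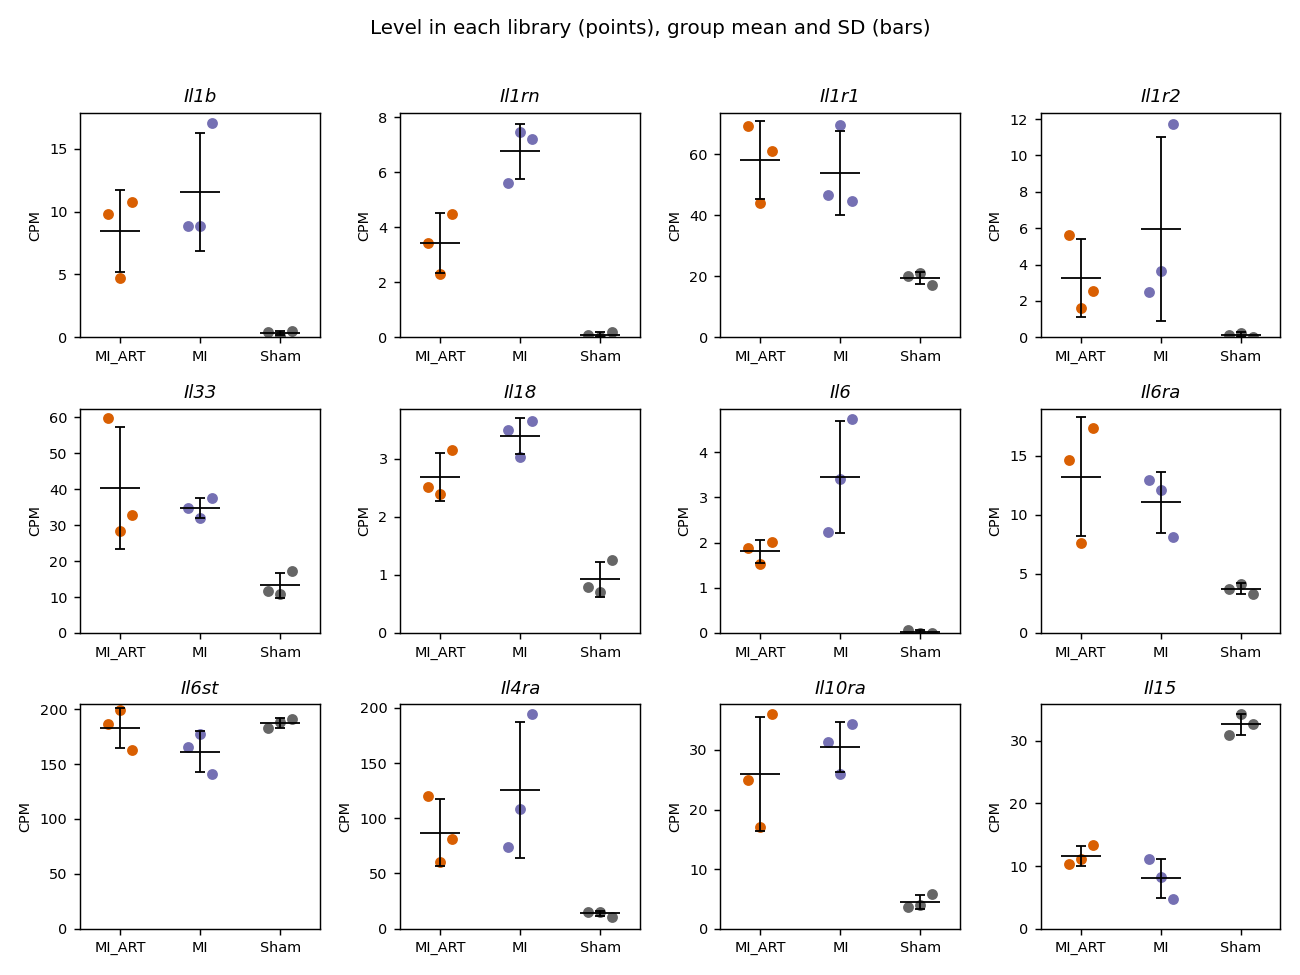
CPM of 12 members (y axes, each from 0) in each library (points) of MI_ART, MI and Sham, with the group mean and SD as bars. Il1b, Il1rn, Il1r1, Il1r2, Il33, Il18, Il6, Il6ra, Il4ra and Il10ra had every infarcted library above every Sham library, Il15 had every infarcted library below every Sham library, and Il6st stayed between 141 and 199 CPM.

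The family of the common gamma chain and the type 2 cytokines held 17 members, 12 of them tested. 4 receptors rose in each comparison and 3 members fell in each. Of all tested genes, 12.9% rose and 7.41% fell in MI_ART, and 18.8% rose and 14.3% fell in MI. Il4ra, the receptor chain for IL-4 and IL-13, had 120, 60.2 and 81.1 CPM in MI_ART, 74.4, 109 and 194 CPM in MI, and 15.5, 15 and 10.9 CPM in Sham. No infarcted library came near Sham, and MI 4 was the highest. The log2 fold change was 2.66 ± 0.38 in MI_ART (adjusted p = 0.00128) and 3.19 ± 0.39 in MI (adjusted p = 0.000327). Il13ra1, its partner in the type 2 receptor, had 89.0, 71.4 and 84.2 CPM in MI_ART, 75.5, 81.0 and 40.4 CPM in MI, and 67.5, 62.0 and 70.0 CPM in Sham. It was not called (adjusted p = 0.449 in MI_ART and 0.961 in MI), and MI 4 was the lowest library.

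The ligands of these receptors had few reads. Il4 averaged 0.421 ± 0.202 CPM in MI_ART, 0.214 ± 0.129 in MI and 0.383 ± 0.0776 in Sham, and was not called (adjusted p = 0.915 in MI_ART and 0.372 in MI). Il13 had 0 counts in every library, and so did Il2, Il21 and Il9. Il7, a survival factor for lymphocytes made by stromal cells, averaged 0.512 ± 0.241 CPM in MI_ART, 0.514 ± 0.173 in MI and 1.07 ± 0.417 in Sham (adjusted p = 0.18 in MI_ART and 0.14 in MI).

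Il2rg, the common gamma chain itself, averaged 36.4 ± 8.98 CPM in MI_ART, 36.5 ± 7.35 in MI and 9.53 ± 2.32 in Sham. It rose by 1.93 in MI_ART (adjusted p = 0.000914) and 1.94 in MI (adjusted p = 0.000531), on the log2 scale. The IL-21 receptor Il21r averaged 7.72 ± 2.57 CPM in MI_ART, 9.75 ± 1.61 in MI and 0.598 ± 0.423 in Sham, with log2 fold changes of 3.68 in MI_ART (adjusted p = 0.00201) and 4.02 in MI (adjusted p = 0.00077). The IL-7 receptor Il7r averaged 3.59 ± 1.38 CPM in MI_ART, 2.62 ± 1.75 in MI and 0.390 ± 0.254 in Sham, with log2 fold changes of 3.19 in MI_ART (adjusted p = 0.00638) and 2.74 in MI (adjusted p = 0.00735). These receptors rose, while the tested ligand genes of the family fell (Il15) or did not pass (Il4 and Il7). Of the 9 tested receptors of the family, 4 rose, 2 fell and 3 were not called in each comparison. Il4ra and Il21r are neighbours on chromosome 7, at 125552271 to 125579474 and 125603252 to 125634397.

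The 3 members of this family that fell were Il15, Il15ra and Il2ra, while Il2rg, which serves the same receptors, rose and Il2rb was not called. The share of all members that fell, given above, was near the background in MI_ART and below it in MI. Il15, a ligand presented to neighbouring cells on its own receptor chain, had 10.3, 11.2 and 13.3 CPM in MI_ART, 11.1, 8.27 and 4.75 CPM in MI, and 30.9, 34.3 and 32.7 CPM in Sham. Every infarcted library was below every Sham library, and MI 4 was the lowest. Il15 fell by 1.49 ± 0.28 in MI_ART (adjusted p = 0.00491) and by 2.02 ± 0.28 in MI (adjusted p = 0.000615), on the log2 scale. Its presenting chain Il15ra averaged 9.60 ± 0.488 CPM in MI_ART, 8.70 ± 0.444 in MI and 17.2 ± 1.63 in Sham. It fell by 0.84 in MI_ART (adjusted p = 0.00577) and 0.98 in MI (adjusted p = 0.00147), on the log2 scale.

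Il2ra, the high-affinity chain of the IL-2 receptor, averaged 0.919 ± 0.311 CPM in MI_ART, 0.444 ± 0.267 in MI and 2.66 ± 0.395 in Sham. It fell by 1.53 in MI_ART (adjusted p = 0.0431) and 2.58 in MI (adjusted p = 0.00292), on the log2 scale. The MI_ART call held only without MI 2, MI 3 or MI 4, with an adjusted p of 0.0203 to 0.139 across the 9 omissions. Il2ra and Il15ra are neighbours on chromosome 2, at 11642792 to 11693194 and 11705172 to 11733985. The shared IL-2 and IL-15 chain Il2rb averaged 1.05 ± 0.134 CPM in MI_ART, 0.637 ± 0.140 in MI and 0.459 ± 0.249 in Sham, and was not called (adjusted p = 0.111 in MI_ART and 0.485 in MI). Il9r averaged 0.177 CPM in MI_ART, 0.0581 in MI and 0.228 in Sham (adjusted p = 0.85 in MI_ART and 0.199 in MI).

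Scaling by total counts in place of TMM moved these falls and the calls of other members. It raised the median log2 fold change of all genes to 0.75 in MI_ART and 0.88 in MI, with 8032 genes higher and 124 lower in MI_ART, against 2488 and 1433 with TMM. In MI it gave 9528 higher and 644 lower, against 3631 and 2768 with TMM. Under total counts Il15 was still called lower in both comparisons and Il2ra in MI, Il15ra was not called (adjusted p = 0.674 in MI_ART and 0.525 in MI), and Il10rb turned to a log2 fold change of 0.16 in MI_ART and 0.03 in MI. Il2ra was not called in MI_ART either (adjusted p = 0.195). Members not called with TMM were called higher in MI under total counts. Among them were Il6st (adjusted p = 0.00769), Il1rap (0.00183), Il13ra1 (0.0155), Il34 (0.00506) and Il11ra1 (0.0216).

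In the IL-10 family, 5 of 11 members were tested, 2 rose and 1 fell in each comparison. The background was 12.9% higher and 7.41% lower in MI_ART, and 18.8% higher and 14.3% lower in MI, of all tested genes. Il10, the main anti-inflammatory interleukin, had 0.938, 0.625 and 0.148 CPM in MI_ART, 0.330, 0.515 and 0.927 CPM in MI, and 0, 0.0987 and 0 CPM in Sham. All infarcted libraries were above Sham, at few counts, and the gene passed the filter only through infarcted libraries. The log2 fold change was 4.07 ± 1.23 in MI_ART (adjusted p = 0.0423) and 4.12 ± 1.23 in MI (adjusted p = 0.0273). Neither call was firm: in MI_ART it held only without Sham 2, MI 4 or MI_ART 3 (an adjusted p of 0.0181 to 0.133 across the 9 omissions), and in MI it was lost without Sham 1 (0.0757), Sham 3 (0.0813), MI 3 (0.051) or MI 4 (0.0641).

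Il10ra, the binding chain, had 24.9, 17.0 and 36.0 CPM in MI_ART, 31.3, 25.9 and 34.3 CPM in MI, and 3.67, 3.99 and 5.88 CPM in Sham. The infarcted libraries lay well above Sham. It rose by 2.52 ± 0.30 in MI_ART (adjusted p = 0.000494) and 2.76 ± 0.31 in MI (adjusted p = 0.000202), on the log2 scale. Il10rb, the chain shared with the IL-22 and interferon lambda receptors, went the other way. It averaged 82.5 ± 9.45 CPM in MI_ART, 70.3 ± 11.4 in MI and 124 ± 9.64 in Sham. It fell by 0.58 in MI_ART (adjusted p = 0.0382) and 0.81 in MI (adjusted p = 0.00535) on the log2 scale, and the MI_ART call held only without MI 2 or MI 4 (an adjusted p of 0.00849 to 0.159 across the 9 omissions). Il20rb averaged 1.99 CPM in MI_ART, 2.03 in MI and 2.03 in Sham (adjusted p = 0.962 in MI_ART and 0.995 in MI). Il22ra1 averaged 0.453 CPM in MI_ART, 0.329 in MI and 0.112 in Sham (adjusted p = 0.392 in MI_ART and 0.456 in MI).

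The IL-17 family held 11 members, 6 of them tested. 1 rose in MI_ART (background 12.9% of all tested genes) and 2 in MI (background 18.8%), and none fell (background 7.41% and 14.3%). Il17ra, the chain common to the IL-17 receptors, had 16.4, 10.6 and 13.3 CPM in MI_ART, 6.25, 15.7 and 17.9 CPM in MI, and 1.77, 1.56 and 1.88 CPM in Sham. No infarcted library overlapped with Sham, and MI 2 was the lowest of them. It rose by 2.95 ± 0.38 in MI_ART (adjusted p = 0.000715) and 2.93 ± 0.38 in MI (adjusted p = 0.000443), on the log2 scale. Its partner Il17rc averaged 9.95 ± 1.47 CPM in MI_ART, 13.5 ± 8.24 in MI and 5.59 ± 0.793 in Sham. It was called in MI (log2 fold change 1.27, adjusted p = 0.0255) and not in MI_ART (adjusted p = 0.146), and MI 4, at 22.9 CPM, was the highest library. The MI call was lost without Sham 1 (0.0861), Sham 2 (0.0537) or Sham 3 (0.0763).

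The IL-17 ligands were scarce. Il17a had 0 counts in every library and Il17f at most 5. Il17d, the ligand with enough reads to test, averaged 1.35 ± 0.155 CPM in MI_ART, 1.85 ± 0.165 in MI and 2.29 ± 0.272 in Sham, and was not called (adjusted p = 0.0779 in MI_ART and 0.421 in MI). Il17rb, the IL-25 receptor chain, averaged 0.338 CPM in MI_ART, 0.116 in MI and 0.153 in Sham (adjusted p = 0.505 in MI_ART and 0.805 in MI). MI_ART 1, at 0.864 CPM, made most of the MI_ART mean. Il17rd averaged 5.25 CPM in MI_ART, 6.25 in MI and 8.02 in Sham (adjusted p = 0.525 in MI_ART and 0.677 in MI), with MI_ART 2 alone at 0.875 CPM. Il17re, the IL-17C receptor chain, averaged 0.906 CPM in MI_ART, 1.21 in MI and 1.24 in Sham (adjusted p = 0.622 in MI_ART and 0.965 in MI).

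4 further tested members stand outside these families or alone in theirs. Il3ra, the IL-3 receptor chain, averaged 7.93 ± 0.862 CPM in MI_ART, 13.0 ± 10.3 in MI and 1.92 ± 0.487 in Sham, and MI 4 had 24.8 CPM. It rose by 2.05 in MI_ART (adjusted p = 0.0161) and 2.76 in MI (adjusted p = 0.00247) on the log2 scale, and the MI_ART call was lost without Sham 2 (0.0648), Sham 3 (0.0551) or MI_ART 1 (0.0508). Il16, a lymphocyte attractant, had 14.0, 15.4 and 17.1 CPM in MI_ART, 17.3, 14.2 and 18.4 CPM in MI, and 12.6, 10.9 and 11.1 CPM in Sham. All infarcted libraries were above Sham by a small margin. It was called in MI (log2 fold change 0.53 ± 0.17, adjusted p = 0.0403) and not in MI_ART (adjusted p = 0.113), and the MI call held only without MI 3 (an adjusted p of 0.0321 to 0.116 across the 9 omissions).

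Il34, a second ligand of the macrophage receptor Csf1r, had 2.85, 2.84 and 2.77 CPM in MI_ART, 2.61, 3.15 and 4.56 CPM in MI, and 3.10, 2.05 and 2.53 CPM in Sham. The groups overlapped and it was not called (adjusted p = 0.783 in MI_ART and 0.276 in MI). Il4i1 is named for its induction by IL-4 and encodes an amino acid oxidase, not an interleukin. It averaged 0.561 ± 0.305 CPM in MI_ART, 0.446 ± 0.264 in MI and 0.102 ± 0.0303 in Sham, and its log2 fold change was 2.44 in MI_ART (adjusted p = 0.0332) and 2.11 in MI (adjusted p = 0.0393). The MI_ART call held only without MI 2, MI 3, MI 4 or MI_ART 1 (an adjusted p of 0.0229 to 0.141 across the 9 omissions), and the MI call only without MI 2, MI 4 or MI_ART 1 (0.0317 to 0.149). Il4i1 overlaps Il4i1b and Tbc1d17 in the annotation.

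The 32 members with too few reads include ligands that T cells and mast cells are known to secrete. At 0 in every library were Il2, Il3, Il9, Il13, Il21, Il31, Il17a, Il19, Il20, Il1f5, Il1f6, Il1f8, Il1f10, Il1rapl2, Il23r and both further copies of Il11ra2. A count of 0 allows a level of up to 0.0322 to 0.0592 CPM, depending on the library, by counting error alone. Those with some counts were Il5, Il5ra, Il13ra2, Il1rapl1, Il22, Il22ra2, Il24, Il20ra, Il17b, Il17c, Il17f, Il25, Il12b, Il12rb2 and Il31ra. Il31ra, a receptor chain of IL-31, had 2, 8 and 5 counts in MI_ART, 8, 21 and 0 in MI, and 0 in all of Sham. Il5, the eosinophil growth factor, had 6, 4 and 4 counts in MI_ART, 9, 0 and 8 in MI, and 4, 12 and 20 in Sham. Il24 had 18 counts in MI 4 and none elsewhere. Il22ra2, the decoy receptor of IL-22, had 12, 8 and 4 counts in MI_ART, against 0 in every MI and every Sham library, and is named here because of these values. All 3 counts are among the over-frequent ones described above, and the gene was below the filter and not tested.

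MI_ART and MI were set against each other in the same edgeR fit, which is also the test of whether their differences from Sham were unequal. None of the 52 tested members was called (background 0.0103% of all tested genes), and none was called with DESeq2 or limma-voom. DESeq2 called 52 of all genes higher and 41 lower in MI_ART, and limma-voom called 0 higher and 1 lower. At an unadjusted p below 0.05 there was 1 member, Il2ra, against 6.96% of all tested genes. Il2ra had 0.938, 0.6 and 1.22 CPM in MI_ART, against 0.752, 0.279 and 0.302 CPM in MI, with overlap. Its log2 fold change was 1.05 ± 0.46 (unadjusted p = 0.0482, adjusted p = 0.716). The median log2 fold change of the tested members was -0.03, against -0.003 over all tested genes.

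Of the 52 tested members, 5 had MI_ART and MI values that did not overlap, 1 higher and 4 lower in MI_ART. Over all tested genes 7.38% were higher and 6.52% lower without overlap. Il2rb was the higher one, with 1.16, 0.9 and 1.08 CPM in MI_ART, against 0.535, 0.579 and 0.797 CPM in MI (log2 fold change 0.72 ± 0.47, adjusted p = 0.76). Il1rn was lower, at a log2 fold change of -0.99 ± 0.53 (adjusted p = 0.733). Il6 was lower at -0.93 ± 0.57 (adjusted p = 0.752). Both had MI_ART values between those of MI and Sham, as given above. Il17d had 1.17, 1.44 and 1.44 CPM in MI_ART, against 1.97, 1.66 and 1.92 CPM in MI (log2 fold change -0.45 ± 0.27, adjusted p = 0.744). Il12rb1 had 0, 0.05 and 0.123 CPM in MI_ART, against 0.228, 0.15 and 0.269 CPM in MI (log2 fold change -1.87 ± 1.26, adjusted p = 0.764). Il1a, Il16, Il27ra and Il17rc, called in MI alone, and Il1rl2, called in MI_ART alone, did not pass this test of the difference (adjusted p = 0.965, 0.905, 0.884, 0.798 and 0.83). A p that misses the threshold does not show that the groups had the same level.

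**Figure D4:**
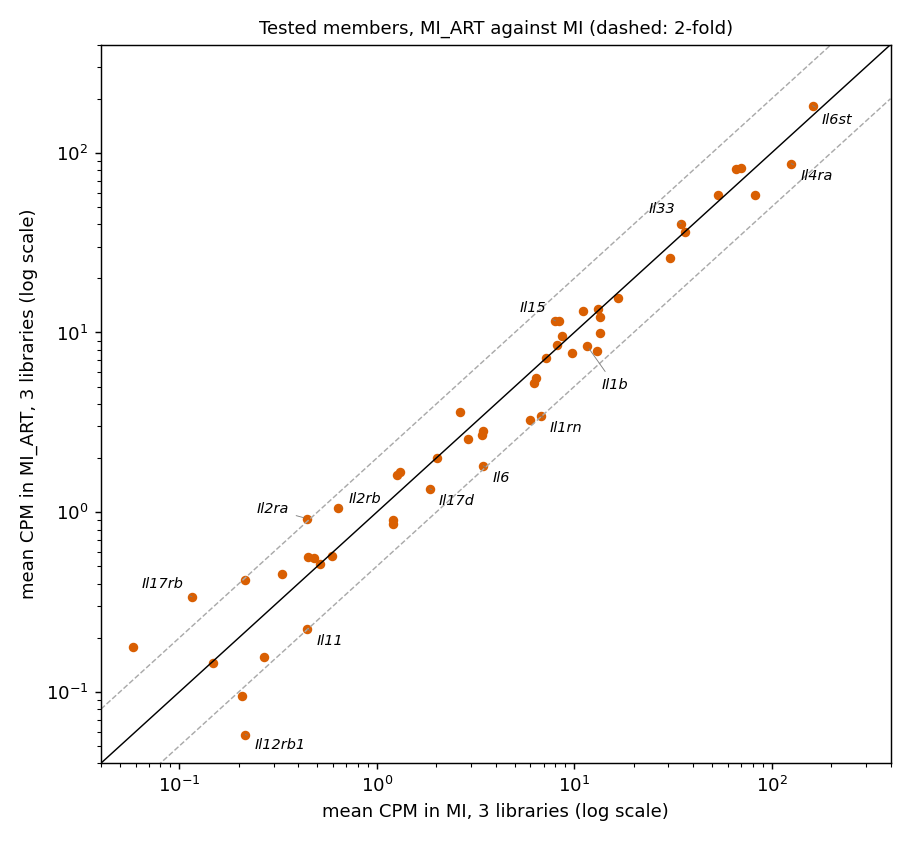
Mean CPM of each tested member in MI_ART (y axis, log scale) against MI (x axis, log scale), with equality as a solid line and a 2-fold difference as dashed lines. Most points lie between the dashed lines, those outside have a mean below 1 CPM in both groups, and none of the 52 was called different.

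The chains and ligands that share receptors with interleukins were described from a list of 22 genes, 21 of them tested. 12 rose and 1 fell in MI_ART (background 12.9% and 7.41% of all tested genes), and 13 rose and 2 fell in MI (background 18.8% and 14.3%), with a median log2 fold change of 1.35 in MI_ART and 1.84 in MI. Among those with the smallest p in MI were Csf2rb2, Csf3r, Lif, Csf1r and Crlf2. Csf2rb2, a mouse beta chain of the IL-3 receptor and a near copy of Csf2rb, averaged 13.8 CPM in MI_ART, 12.4 in MI and 1.89 in Sham. Csf3r, the receptor of granulocyte colony-stimulating factor, averaged 28.4 CPM in MI_ART, 35.5 in MI and 0.956 in Sham. Lif, a ligand that signals through Il6st, averaged 2.09 CPM in MI_ART, 3.57 in MI and 0.385 in Sham. Csf1r, the receptor that Il34 binds, averaged 161 CPM in MI_ART, 194 in MI and 48.3 in Sham. Crlf2, which pairs with Il7r, had log2 fold changes of 1.33 in MI_ART (adjusted p = 0.0148) and 2.19 in MI (adjusted p = 0.000779). Ctf1 (cardiotrophin-1), another ligand of the Il6st receptors, fell in both (by 0.95 in MI_ART and 1.47 in MI on the log2 scale), and Lifr, which pairs with Il6st, fell in MI (log2 fold change -1.07, adjusted p = 0.0141). Csf3r and Csf1r are also on the neutrophil and macrophage marker lists.

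The genes that release or carry the signals were listed by step. Of 9 tested enzymes and sensors that release IL-1 and IL-18, 8 rose in MI_ART and 9 in MI, with a median log2 fold change of 1.41 in MI_ART and 1.33 in MI. The 6 with the smallest p in MI were Mefv, Nlrp3, Gsdmd, Prtn3, Aim2 and Casp1. Nlrp3, the inflammasome sensor, averaged 2.60 CPM in MI_ART, 4.22 in MI and 0.513 in Sham. Casp1, the protease that cuts the precursors, averaged 9.61 CPM in MI_ART, 10.2 in MI and 4.76 in Sham, and Gsdmd, the pore through which they leave, averaged 27.1 CPM in MI_ART, 31.2 in MI and 12.4 in Sham. Mefv and Aim2 are further sensors and Prtn3 is a neutrophil protease, with log2 fold changes of 7.05, 1.51 and 5.86 in MI_ART and 6.97, 1.63 and 6.71 in MI. Mefv and Prtn3 were at 0 in a Sham library, so the size of their fold changes is uncertain. Ctsg, another protease of granulocytes, had 0 counts in every library.

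The background for these lists is again the share of all tested genes, 12.9% higher and 7.41% lower in MI_ART, and 18.8% higher and 14.3% lower in MI. From the IL-1 receptor to NF-kB, 4 of 20 genes rose in MI_ART and 7 in MI, and none fell, with a median log2 fold change of 0.30 in MI_ART and 0.15 in MI. Nfkbiz, Irak4, Myd88 and Nfkb2 passed in both, with log2 fold changes of 1.67, 1.25, 1.18 and 1.17 in MI_ART and 1.89, 1.30, 1.37 and 1.56 in MI. Relb and Rela passed in MI (log2 fold changes of 1.18 and 1.01) and not in MI_ART (adjusted p = 0.0597 for Relb and 0.214 for Rela). On the JAK-STAT list, 6 of 20 rose in MI_ART, and 8 rose and 2 fell in MI, with a median log2 fold change of 0.39 in MI_ART and 0.22 in MI. Ptpn6, Socs3 and Cish, which restrain JAK signalling, passed in both with log2 fold changes of 2.83, 2.68 and 0.85 in MI_ART and 3.16, 3.26 and 1.10 in MI. Stat4 and Jak3, the kinase bound to Il2rg, also passed in both (log2 fold changes of 2.01 and 1.25 in MI_ART, and 2.94 and 1.49 in MI). Stat5b (log2 fold change -0.88, adjusted p = 0.00488) and Stat5a (-0.79, adjusted p = 0.0101), which act after the IL-2 and IL-15 receptors, fell in MI and were not called in MI_ART (adjusted p = 0.0516 for Stat5b and 0.306 for Stat5a). No gene of the 4 lists was called in MI_ART versus MI.

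Marker genes of immune and stromal cells moved with the members. Of all tested genes, 12.9% were called higher and 7.41% lower in MI_ART, and 18.8% higher and 14.3% lower in MI. All 12 macrophage and monocyte markers rose in both comparisons, and their summed level was 1934 to 3642 CPM in MI_ART, 2847 to 3373 in MI and 352 to 531 in Sham. Their median log2 fold change was 2.83 in MI_ART and 2.89 in MI. The lowest infarcted sum was in MI_ART 2, which was also the infarcted library with the least Il1b, Il1rn, Il4ra and Il10ra. MI_ART 2 was, however, the highest of the 9 libraries for Il18r1, Il1rl1 and Il6st. It also had the lowest infarcted sums of neutrophil and fibroblast markers. Of the neutrophil markers 7 of 10 were tested, and 6 rose in MI_ART and 7 in MI, with sums of 22.9 to 112 CPM in MI_ART, 58.5 to 147 in MI and 1.52 to 47.7 in Sham. Their median log2 fold change was 5.47 in MI_ART and 5.90 in MI. Mmp8, Retnlg, Cxcr2 and S100a8 were at 0 in a Sham library, so the size of such changes is uncertain. The highest Sham sum was almost all Ltf in Sham 1 (44.9 CPM), and the defining marker Ly6g was at 0 except in MI_ART 3 (0.111 CPM) and MI 4 (0.0862 CPM). Of 8 fibroblast markers, 5 rose in MI_ART, and 6 rose and 1 fell in MI, with sums of 3498 to 4028 CPM in MI_ART, 4075 to 4906 in MI and 1299 to 1515 in Sham. Their median log2 fold change was 1.10 in MI_ART and 1.81 in MI. In these bulk samples, more cells of a type and more RNA of a gene per cell cannot be told apart, and the part of the markers in the members' values was not tested.

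Markers of lymphocytes and mast cells moved less in number. The counts below are to be read against the same background, 12.9% higher and 7.41% lower in MI_ART, and 18.8% and 14.3% in MI. Their median log2 fold changes were 0.86 (T and NK cells), 0.76 (B cells) and -0.67 (mast cells) in MI_ART, and 0.65, 1.62 and -0.38 in MI. Of 11 T and NK cell markers 1 rose in each comparison, with sums of 5.64 to 7.59 CPM in MI_ART, 4.15 to 8.63 in MI and 3.71 to 5.16 in Sham. Of 6 B cell markers none rose in MI_ART and 2 in MI, where MI 4 alone had a sum of 157 CPM, against 14.4 to 39.2 CPM in all other libraries. Of 5 tested mast cell markers 1 rose in MI_ART and none in MI, with sums of 12.2 to 15.1 CPM in MI_ART, 8.32 to 19.1 in MI and 10.5 to 14.0 in Sham. Endothelial markers summed to 712 to 763 CPM in MI_ART, 715 to 1068 in MI and 816 to 853 in Sham, with none called in MI_ART and 2 of 8 lower in MI. Their median log2 fold change was -0.17 in MI_ART and 0.18 in MI. Of 8 ventricular muscle markers 4 fell in MI_ART and 6 in MI, and none of 8 atrial markers was called in either, with atrial sums of 1316 to 12537 CPM in MI_ART, 13529 to 25282 in MI and 1817 to 7520 in Sham. The median log2 fold change of the ventricular markers was -1.09 in MI_ART and -1.60 in MI, and that of the atrial markers -0.58 in MI_ART and 0.38 in MI. Ventricular sums were 3706 to 5395 CPM in MI_ART, 1933 to 3725 in MI and 9260.5 to 10895 in Sham. Every infarcted library was thus below every Sham library in ventricular markers. Every MI library was above every MI_ART and Sham library in the atrial sum. The muscle make-up of the samples thus differed between the groups as well as between libraries, and cannot be told apart from the group differences. Its part in the members' values, including the falls of Il15, Il15ra, Il2ra and Il10rb, was not tested. MI 4 was the highest of the 9 libraries for 18 tested members and the lowest for 9.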

How the data were processed

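RNA was measured by bulk sequencing in 9 libraries, prepared with a SMARTer kit (input 1.3 µg of RNA), per the labels' protocols, which name different RNA extraction methods in different places. The table deposited by the authors holds unnormalized read counts, 1 row per Ensembl identifier. The submitters' processing notes name the GRCm38 build, DESeq 1.8.3, featureCounts 1.5.0-p3 and HISAT without a version. Strand, multimapping and filter settings were not given in the sources used here, so the counts of overlapping genes and near copies are uncertain.

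From the counts, R 4.3.3 and edgeR 4.0.16 were used to filter low genes (filterByExpr on the 3 groups), scale by TMM and fit all 9 libraries with group as the model term. CPM uses the TMM-scaled library size, and SE is the log2 fold change over the square root of its F statistic. A group with 0 counts was set at 3 counts per library. Two-sided p-values were adjusted by Benjamini-Hochberg over 19326 genes. An exact permutation test of single genes was not used, as 3 libraries against 3 cannot give a p below 0.1. The fit was checked on simulated counts, which had a smaller spread than these data and changes only in genes with many reads. That check therefore does not cover the members with few reads or the spread seen here. The alternatives were RLE factors, total counts, DESeq2 1.42.0, limma-voom (limma 3.58.1), other low-count filters, only the compared groups, a replicate block, and omitted libraries, 18 settings in all.

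The single-sample files equalled the count table at a tolerance of 0. Of the 84 members, 81 matched the RefSeq table (assembly GRCm38.p6), which gave positions and overlaps. The members, their families and the 13 lists of partner and marker genes were chosen with earlier results of these data known. Named with a value in each library were 22 members picked by role, whatever their result, with other members as group means. Of each partner list the 6 genes with the smallest p in MI versus Sham were named, except 1 that is not reported here.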

Additional observations from a re-analysis of the deposited data

How the results depend on the processing

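The direction and call were repeated under 18 alternative settings. Of 983 values of called members under the alternatives, 117 no longer passed and 2 changed sign. Of 855 values of members not called against Sham, 37 passed under an alternative and 80 changed sign. Of the members called, 14 of 26 in MI_ART versus Sham and 18 of 29 in MI versus Sham were called in all 18. Il11 was called in both comparisons in the 17 settings that tested it and was not tested under the stricter filter. The number that rose lay between 15 (limma-voom, background 10.9% of all genes) and 32 (total counts, background 41.6%) in MI_ART, and between 18 (without Sham 3, background 14.1%) and 33 (total counts, background 49.3%) in MI. The number that fell dropped to 1 in MI_ART (background 0.642%) and 2 in MI (background 3.33%) with total counts. With no low-count filter it dropped to 2 in MI_ART (background 3.18%). It ranged from 2 to 5 in MI_ART when 1 library was left out, where the background ranged from 2.27% to 14.6%. It was 2 in MI_ART without Sham 1, Sham 2, Sham 3, MI_ART 1, MI_ART 2 or MI_ART 3 (background 2.27% to 3.96%). The share of all genes called lower thus changed as well. Il10rb changed sign with total counts, to a log2 fold change of 0.16 in MI_ART and 0.033 in MI, where the scaling itself moved the median of all genes. The number of members called in MI_ART versus MI was 0 under each of the 18 settings. Deviations of same-numbered libraries from their group means correlated weakly (-0.035 to 0.093), within the range of the other pairs (-0.121 to 0.108). With 3 libraries per group, this cannot exclude a shared batch or pairing. With a replicate block, in which MI 4 stands alone and adds nothing to the contrasts, 23 members rose and 3 fell in MI_ART versus Sham (background 16.8% and 13.8%), 23 rose and 4 fell in MI versus Sham (background 17.6% and 14.8%), and 0 were called in MI_ART versus MI. Depth limits the members near 3 counts per library.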
